A study of Mus musculus with 9 samples.

Results

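The genes described here are 9 chemokines and leukocyte adhesion molecules, of 49585 genes in the deposited table of mouse ventricle RNA: the CC chemokines Ccl9, Ccl6, Ccl2 and Ccl8, the CXC chemokine Cxcl12, the CX3C chemokine Cx3cl1, and the adhesion molecules Icam1, Vcam1 and Selp. They were chosen by name, with earlier results of these data known, so the shares set beside all genes describe them and support nothing. Each was found in 1 row, and all 9 passed the filter on low counts that left 12670 genes to test. RNA was sequenced from the whole ventricle, without atria and valves, of male mice on a mixed C57BL/6 and ICR background, at 15 weeks, in 3 groups of 3 libraries. TTg_HF mice carried the MGTH2A transgene and were fed a diet with 60% of its kilocalories as fat, with 1 g/L of L-NAME in their water. L-NAME blocks the enzymes that make nitric oxide. Ctrl_HF mice received the same diet and L-NAME, without the transgene. Ctrl mice received normal chow.

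The genotype Tcf21iCre/R26 tdTomato, an inducible Cre with a red reporter, was shared by the 3 groups, as was tamoxifen, injected intraperitoneally at 2 mg per day on 5 days in week 5. The diet and L-NAME together model a heart failure in which the ejection fraction is preserved (HFpEF). MGTH2A encodes Gata4, Hand2, Mef2c and Tbx5, transcription factors of heart development, and Tcf21 is a gene of fibroblast and epicardial cells, while the RNA is that of the whole ventricle. TTg_HF mice differ from Ctrl mice in both diet and genotype, and transgenic mice on chow were not analysed here. The labels number the replicates without saying that each is a separate animal, so the p-values measure the spread between these libraries, which may be in part technical.

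Chemokines are small secreted proteins that bind to receptors on leukocytes and direct their movement. Selectins on activated endothelium let leukocytes roll along the vessel wall, chemokines displayed there activate leukocyte integrins, and the integrins then bind Icam1 and Vcam1 for firm arrest and passage into the tissue. Many of these genes are known targets of the transcription factor NF-kappaB. In the heart, chemokines and adhesion molecules bring monocytes and neutrophils into stressed or injured muscle, while Cxcl12 is made steadily by stromal and vascular cells.

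Ccl9 and Ccl6 are neighbours on the same strand of chromosome 11, 9.25 kb apart, and their values ran close together over the libraries, so the 250 bases before the start of each are shown, from RefSeq on GRCm38.p6. They lie at chr11:83578637-83578886 and chr11:83593088-83593337, both on the minus strand, and are written 5′ to 3′. Capitals mark their longest shared run, of 13 bases, which begins 14 bases before the start of Ccl9 and 55 bases before that of Ccl6.
Ccl9: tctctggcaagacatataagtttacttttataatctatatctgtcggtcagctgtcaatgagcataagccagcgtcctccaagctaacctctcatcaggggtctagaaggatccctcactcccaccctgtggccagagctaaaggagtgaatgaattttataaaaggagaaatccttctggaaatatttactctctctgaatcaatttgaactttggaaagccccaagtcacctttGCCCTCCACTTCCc
Ccl6: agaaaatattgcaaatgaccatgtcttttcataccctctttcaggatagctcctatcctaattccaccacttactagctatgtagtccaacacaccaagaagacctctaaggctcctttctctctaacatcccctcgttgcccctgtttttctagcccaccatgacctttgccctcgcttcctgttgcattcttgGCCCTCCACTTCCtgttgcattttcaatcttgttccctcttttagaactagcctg
After alignment 54.0% of the bases of these 2 stretches were identical, within the 47.6% to 55.6% of the other pairs of members.

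Icam1 is shown as the adhesion molecule whose RNA rose and whose upstream region is a textbook example of NF-kappaB control. Its 250 bases lie at chr9:21015690-21015939 on the plus strand, and capitals mark the match to GGAAATTCC at positions -153 to -145 from the RefSeq start, which lies before the GENCODE start given further on.
Icam1: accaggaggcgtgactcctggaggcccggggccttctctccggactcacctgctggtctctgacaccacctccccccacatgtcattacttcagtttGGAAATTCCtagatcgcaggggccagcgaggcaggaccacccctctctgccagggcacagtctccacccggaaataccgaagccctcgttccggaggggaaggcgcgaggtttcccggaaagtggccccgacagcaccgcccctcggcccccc
Of 32851 mouse promoters of the same length, 0.286% hold GGAAATTCC, a variant searched because the usual NF-kappaB consensus had no match in this stretch. As the variant was chosen for this stretch, that share gives its match in Icam1 no support. The consensus was present in 7.25% of the promoters and, of the 7 members with an entry, in Ccl9, at positions -35 to -26. TATAAA was found in Ccl9, Ccl8 and Cx3cl1 (12.4% of all promoters), and TGANTCA, the AP-1 motif, in Ccl9 and Selp (6.75%). Both strands were searched, a GGAAATTCC that follows a G also meets the NF-kappaB consensus while the other motifs have no overlap with each other, and a match describes letters, not binding. No stretch was printed for Ccl2 and Vcam1.

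Total counts were 6743109 to 9364336 per library. On the first principal component, which held 31.2% of the variance, the Ctrl_HF libraries were far apart, at 5.12, 48.5 and 23.5 for replicates 1, 2 and 3, and the other 6 libraries lay between -23.5 and -2.33. Ctrl_HF replicate 2 was the library of highest level for 7 of the 9 members. Of the transgene's factors, Tbx5 was higher in TTg_HF than in Ctrl_HF (log2 fold change 2.6, edgeR adjusted p = 0.00253), while Mef2c (0.75, 0.0635), Gata4 (0.59, 0.0940) and Hand2 (0.55, 0.216) missed the threshold of 0.05.

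In Ctrl_HF against Ctrl, the comparison that asks what the diet and L-NAME model changed, the RNA of Ccl9, Icam1 and Vcam1 was higher, by 3.40, 1.83 and 1.72 fold, and the other 6 members did not pass the test. None was lower. These 3 calls of 9 stand beside 3.61% of all tested genes called in either direction, 1.79% higher (227 of 12670) and 1.82% lower, by edgeR's quasi-likelihood test with Benjamini-Hochberg adjustment over all genes. In TTg_HF against Ctrl_HF, which asks what the transgene changed within the model, no member passed. In TTg_HF against Ctrl none passed either. In bulk tissue, fewer cells of a type and less RNA per cell cannot be told apart.

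**Figure D1:**
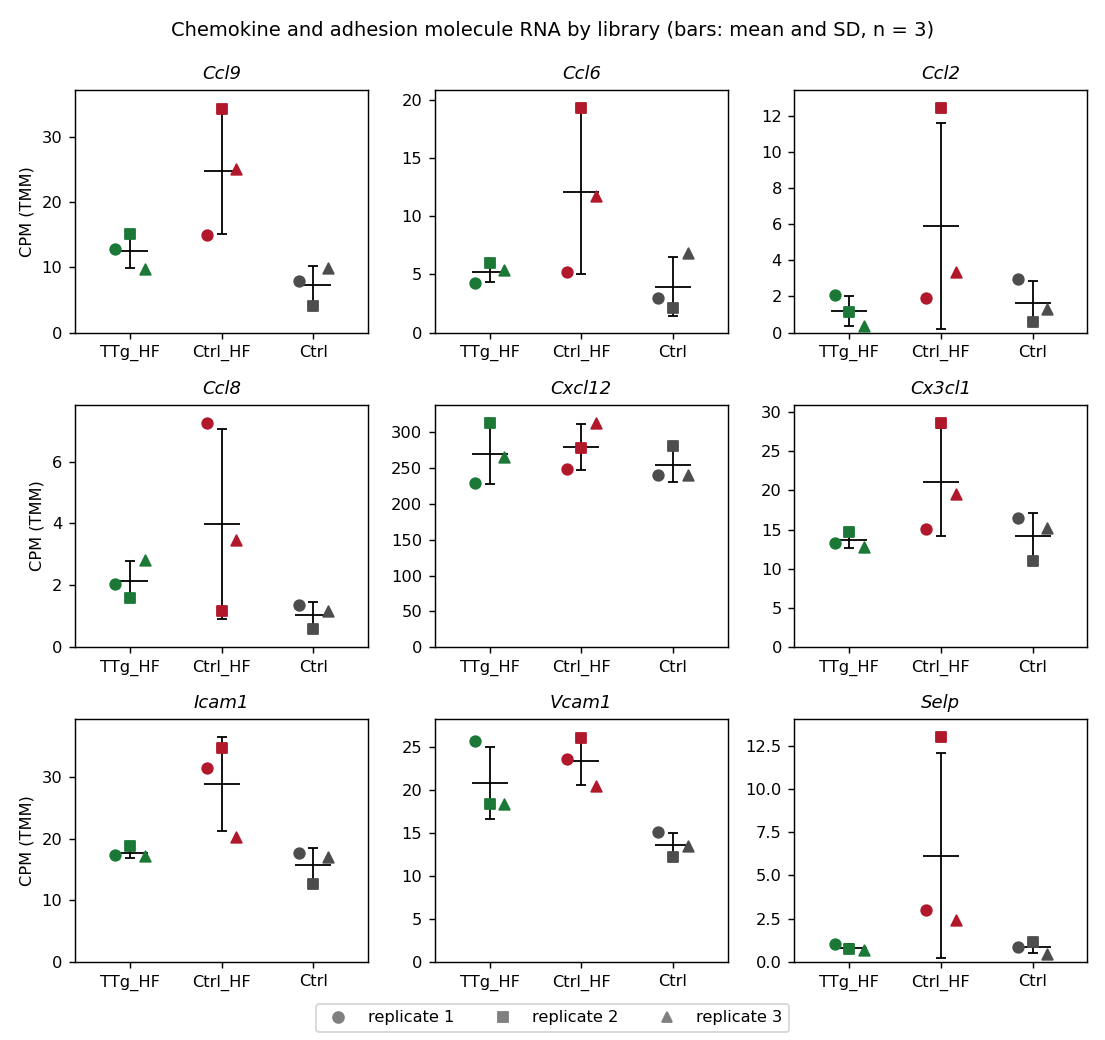
Level of each member in each library, in CPM (y axis, from 0), with TTg_HF, Ctrl_HF and Ctrl from left to right and a marker shape per replicate; bars give the mean and SD of 3 libraries. Ctrl_HF replicate 2 (red square) is the highest point in 7 of the 9 panels, while Cxcl12 lies between 230 and 314 CPM in all libraries.

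Ccl9, a monocyte-attracting chemokine of rodents made by myeloid cells that acts through the receptor Ccr1, had 12.8, 15.1 and 9.73 counts per 1000000 counts (CPM, after TMM normalisation) in TTg_HF, 14.9, 34.2 and 25.0 CPM in Ctrl_HF, and 7.91, 4.04 and 9.85 CPM in Ctrl. All Ctrl_HF libraries lay above all Ctrl libraries, and the lowest of them, replicate 1, lay within the range of TTg_HF. The means were 12.5 ± 2.68 in TTg_HF, 24.7 ± 9.65 in Ctrl_HF and 7.27 ± 2.96 CPM in Ctrl (SD, n = 3 each). The log2 fold change was 1.76 in Ctrl_HF against Ctrl (SE 0.37, 95% interval 0.93 to 2.6, edgeR adjusted p = 0.0375). It was -0.98 in TTg_HF against Ctrl_HF (SE 0.35, interval -1.77 to -0.18, edgeR adjusted p = 0.256) and 0.79 in TTg_HF against Ctrl (interval -0.07 to 1.64, adjusted p = 0.584). The call of Ccl9 held in 5 of 16 other settings (edgeR or DESeq2 adjusted p 6.24e-05 to 0.107). It was lost without Ctrl replicates 1, 2 or 3 (0.0855, 0.107 and 0.0679), Ctrl_HF replicates 2 or 3 (0.0803 and 0.0939) and TTg_HF replicates 1, 2 or 3 (0.0634, 0.0624 and 0.0551). It was also lost with no filter on low counts (edgeR adjusted p = 0.084), in a fit of the 2 groups alone (0.0952) and with a replicate block (0.0844).

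Ccl6, another rodent chemokine that binds Ccr1 and is made by macrophages, had 4.25, 6.01 and 5.395 CPM in TTg_HF, 5.20, 19.3 and 11.7 CPM in Ctrl_HF, and 2.97, 2.08 and 6.80 CPM in Ctrl. Ctrl_HF replicates 2 and 3 were above every other library, while replicate 1 lay among the TTg_HF values and below the highest Ctrl library. Its log2 fold change was 1.60 in Ctrl_HF against Ctrl (SE 0.52, interval 0.42 to 2.78, edgeR adjusted p = 0.127), -1.19 in TTg_HF against Ctrl_HF (SE 0.50, adjusted p = 0.332) and 0.41 in TTg_HF against Ctrl (SE 0.54, adjusted p = 0.898). Ccl6 passed in Ctrl_HF against Ctrl in 2 of 16 other settings, DESeq2 (adjusted p = 0.0210) and without Ctrl_HF replicate 1 (0.0224), with adjusted p up to 0.341 in the rest. Of the other members, Ccl6 had the profile nearest to that of Ccl9, with a root mean square difference of 0.36 between their z-scores of log2 CPM over the 9 libraries, against 0.52 to 1.10 for the 7 others.

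Ccl2, the main ligand of Ccr2 and known for calling monocytes out of the blood, had 2.05, 1.16 and 0.352 CPM in TTg_HF, 1.92, 12.4 and 3.36 CPM in Ctrl_HF, and 2.97, 0.578 and 1.29 CPM in Ctrl. A single library, Ctrl_HF replicate 2, stood far above the other 8, and the groups overlapped. With Ctrl_HF at 5.90 ± 5.70 and Ctrl at 1.61 ± 1.23 CPM, the log2 fold change was 1.86 (SE 0.82, interval -0.02 to 3.74, edgeR adjusted p = 0.247), and without Ctrl_HF replicate 2 it was 0.74. It was -2.33 in TTg_HF against Ctrl_HF (SE 0.87, edgeR adjusted p = 0.279), and in TTg_HF against Ctrl -0.47 (SE 0.97, adjusted p = 0.942).

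Ccl8, whose receptor in the mouse is Ccr8, had 2.05, 1.58 and 2.81 CPM in TTg_HF, 7.26, 1.17 and 3.48 CPM in Ctrl_HF, and 1.36, 0.578 and 1.17 CPM in Ctrl. It differed from the other CC chemokines in that Ctrl_HF replicate 1 was its highest library and replicate 2 its lowest of that group. The log2 fold change was 1.93 in Ctrl_HF against Ctrl (SE 0.59, interval 0.62 to 3.25, edgeR adjusted p = 0.102) and -0.89 in TTg_HF against Ctrl_HF (SE 0.54, adjusted p = 0.487). All TTg_HF libraries lay above all Ctrl libraries for Ccl8, with a log2 fold change of 1.04 (SE 0.63, edgeR adjusted p = 0.680). Ccl8 passed in Ctrl_HF against Ctrl in DESeq2 (adjusted p = 0.0399) and without Ctrl_HF replicate 2 (0.0264), of a range up to 0.312, and its log2 fold change was 1.20 without Ctrl_HF replicate 1. Its sums were 53, 91 and 26 reads over the 3 libraries of TTg_HF, Ctrl_HF and Ctrl, and no Ctrl library held more than 11 of them.

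Cxcl12, the ligand of Cxcr4 that holds progenitor cells and lymphocytes in their niches, was the most abundant member. Per kilobase of exon it averaged 32.9 ± 5.08 CPM in TTg_HF, 34.3 ± 3.95 in Ctrl_HF and 31.1 ± 2.89 in Ctrl, while no other member reached 10 CPM per kilobase as a group mean, and the next was Ccl9 in Ctrl_HF at 8.12 ± 3.17. By library Cxcl12 had 229.7, 312.5 and 265.6 CPM in TTg_HF, 249.2, 277.7 and 313.6 CPM in Ctrl_HF, and 240.8, 281.7 and 240.9 CPM in Ctrl. The 3 ranges overlapped throughout. The log2 fold changes were 0.14 in Ctrl_HF against Ctrl (interval -0.13 to 0.41, edgeR adjusted p = 0.570), -0.06 in TTg_HF against Ctrl_HF (interval -0.33 to 0.21, adjusted p = 0.872) and 0.08 in TTg_HF against Ctrl (interval -0.19 to 0.35, adjusted p = 0.909).

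Cx3cl1, a chemokine on a membrane-bound stalk that binds Cx3cr1 on monocytes and macrophages and can act as an adhesion molecule itself, had 13.3, 14.8 and 12.8 CPM in TTg_HF, 15.1, 28.7 and 19.6 CPM in Ctrl_HF, and 16.4, 10.97 and 15.2 CPM in Ctrl. Every TTg_HF library lay below every Ctrl_HF library, by a small margin at Ctrl_HF replicate 1, and the TTg_HF and Ctrl ranges overlapped. The log2 fold change was -0.62 in TTg_HF against Ctrl_HF (SE 0.23, interval -1.12 to -0.13, edgeR adjusted p = 0.242). In Ctrl_HF against Ctrl it was 0.57 (SE 0.22, interval 0.07 to 1.06, edgeR adjusted p = 0.184), and in TTg_HF against Ctrl -0.06 (SE 0.23, adjusted p = 0.972). Without Ctrl_HF replicate 1 Cx3cl1 passed in TTg_HF against Ctrl_HF (adjusted p = 0.0421, of 0.0421 to 0.613 over 16 settings) and in Ctrl_HF against Ctrl (0.0402, of 0.0402 to 0.499).

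Icam1, the endothelial ligand of the leukocyte integrins LFA-1 and Mac-1, had 17.3, 18.8 and 17.1 CPM in TTg_HF, 31.5, 34.8 and 20.3 CPM in Ctrl_HF, and 17.7, 12.6 and 17 CPM in Ctrl. All Ctrl_HF libraries lay above all libraries of both other groups, replicate 3 by the smallest margin, and the TTg_HF libraries lay close together. The means were 17.7 ± 0.899 in TTg_HF, 28.9 ± 7.62 in Ctrl_HF and 15.8 ± 2.76 CPM in Ctrl (SD, n = 3 each). Icam1 rose in Ctrl_HF against Ctrl, with a log2 fold change of 0.87 (SE 0.20, interval 0.44 to 1.30, edgeR adjusted p = 0.0380). Against Ctrl_HF, TTg_HF had a value of -0.70 (SE 0.20, interval -1.12 to -0.27, edgeR adjusted p = 0.162), and in TTg_HF against Ctrl 0.17 (SE 0.20, interval -0.27 to 0.61, adjusted p = 0.877). The call of Icam1 held in 7 of 16 other settings (adjusted p 0.00456 to 0.157). It was lost without Ctrl replicates 1, 2 or 3 (0.0634, 0.157 and 0.0937), without Ctrl_HF replicate 2 (0.102) and without TTg_HF replicates 1, 2 or 3 (0.0575, 0.0673 and 0.0655). It was also lost in a fit of the 2 groups alone (edgeR adjusted p = 0.106) and with a replicate block (0.0629).

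Vcam1, the ligand of the integrin VLA-4 on monocytes and lymphocytes, had 25.7, 18.3 and 18.4 CPM in TTg_HF, 23.6, 26.03 and 20.5 CPM in Ctrl_HF, and 15.1, 12.2 and 13.5 CPM in Ctrl. Both groups on the diet and L-NAME lay above all Ctrl libraries, and they overlapped with each other. The means were 20.8 ± 4.20 in TTg_HF, 23.4 ± 2.77 in Ctrl_HF and 13.6 ± 1.42 CPM in Ctrl (SD, n = 3 each). Vcam1 rose in Ctrl_HF against Ctrl, with a log2 fold change of 0.78 (SE 0.16, interval 0.42 to 1.13, edgeR adjusted p = 0.0281). In TTg_HF against Ctrl it was 0.61 (SE 0.16, interval 0.25 to 0.96, edgeR adjusted p = 0.175), and in TTg_HF against Ctrl_HF -0.17 (SE 0.16, interval -0.52 to 0.18, adjusted p = 0.662). The call of Vcam1 held in 11 of 16 other settings and was lost on leaving out Ctrl replicate 2 (0.132), Ctrl replicate 3 (0.0890), Ctrl_HF replicate 2 (0.0740) or Ctrl_HF replicate 3 (0.0519), and in a fit of the 2 groups alone (0.0503).

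Selp, or P-selectin, is stored in platelets and endothelial cells and mediates the first rolling contacts of leukocytes. It had 7, 7 and 6 reads in TTg_HF, 22, 89 and 21 reads in Ctrl_HF, and 7, 10 and 4 reads in Ctrl, which is 1.03, 0.738 and 0.704 CPM, 3.01, 13.01 and 2.43 CPM, and 0.865, 1.16 and 0.469 CPM in that order of groups. All Ctrl_HF libraries lay above all others, and replicate 2 held most of the group's reads. Selp passed the filter on low counts through the Ctrl_HF libraries alone, so that a difference of that group was a condition of its being tested. Its log2 fold change was 2.84 in Ctrl_HF against Ctrl (SE 0.69, interval 1.29 to 4.4, edgeR adjusted p = 0.0579), -2.88 in TTg_HF against Ctrl_HF (SE 0.70, interval -4.45 to -1.31, adjusted p = 0.132) and -0.04 in TTg_HF against Ctrl (SE 0.87, interval -1.98 to 1.91, adjusted p = 0.996). It passed in Ctrl_HF against Ctrl in 4 of 16 other settings, among them without Ctrl_HF replicate 1 (0.0214) or 3 (0.0383), with adjusted p from 0.00146 to 0.162. Without Ctrl_HF replicate 2 the log2 fold change there was 1.70 (adjusted p = 0.0735). In TTg_HF against Ctrl_HF Selp passed in DESeq2 (adjusted p = 0.00330) and without Ctrl_HF replicate 1 (0.0306), of a range up to 0.387, and without Ctrl_HF replicate 2 the value was -1.73.

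**Figure D2:**
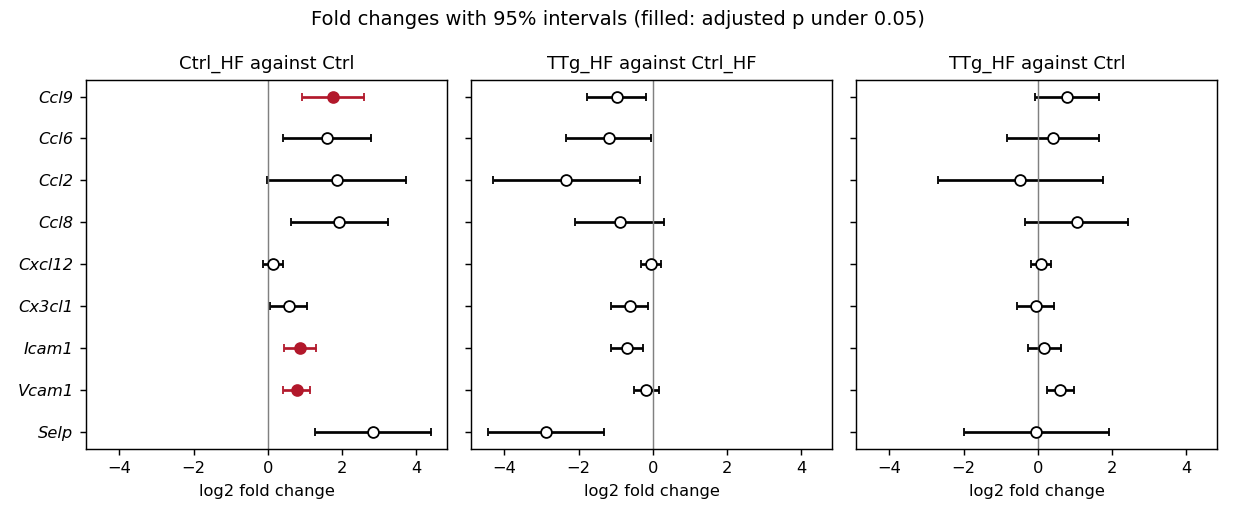
Log2 fold change (x axis) of each member in the 3 comparisons, with 95% intervals from the edgeR fit; filled points passed the threshold of 0.05. Ccl9, Icam1 and Vcam1 are filled in Ctrl_HF against Ctrl and no point is filled in the other 2 comparisons, with the widest intervals at Ccl2 and Selp.

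Read across the 9 members, all log2 fold changes were positive in Ctrl_HF against Ctrl, with a median of 1.60 (range 0.14 to 2.84), beside a median of 0.01 over all tested genes, of which 51.5% were positive. At an unadjusted p under 0.05 there were 7 of 9 members, against 20.6% of all genes, and 4 of 9 had Ctrl_HF libraries all above the Ctrl libraries (Ccl9, Icam1, Vcam1 and Selp), against 11.5% of all genes. Selp was tested only because its Ctrl_HF values are high, and without it the counts were 6 and 3 of 8, with a median of 1.24. In TTg_HF against Ctrl_HF all 9 values were negative, with a median of -0.89 (range -2.88 to -0.06) beside -0.00097 for all genes, of which 49.9% were positive, but Cxcl12 turned positive when Ctrl_HF replicate 3 or TTg_HF replicate 1 was left out. edgeR's quasi-likelihood test called 0 of the 9, where it called 0.0868% of all genes (0.0474% higher and 0.0395% lower). DESeq2 called 1, Selp, where it called 238 lower and 103 higher of the 20045 genes in its fit, made without the low-count filter. At an unadjusted p under 0.05 in edgeR there were 6 of 9, against 14.3% of all genes. Cx3cl1, Icam1 and Selp had TTg_HF libraries all below the Ctrl_HF libraries, against 9.53% of all genes, and none had them all above, against 9.31%. Without Selp the counts at an unadjusted p and without overlap were 5 and 2 of 8, the median was -0.79, and DESeq2 called 0. Both comparisons contain the Ctrl_HF libraries, so a high value there enters each with the opposite sign.

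In TTg_HF against Ctrl the median of the 9 log2 fold changes was 0.17 (range -0.47 to 1.04), and 6 of them were positive, beside a median of -0.0011 for all genes, of which 49.7% were positive. By edgeR's quasi-likelihood test 0 of the 9 passed, beside 0.466% of all genes called, 0.284% higher and 0.182% lower. DESeq2 also called 0, where it called 104 genes higher and 80 lower. At an unadjusted p under 0.05 in edgeR there was 1 member, Vcam1, against 9.41% of all genes. Ccl8 and Vcam1 had TTg_HF libraries all above the Ctrl libraries, against 9.23% of all genes.

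**Figure D3:**
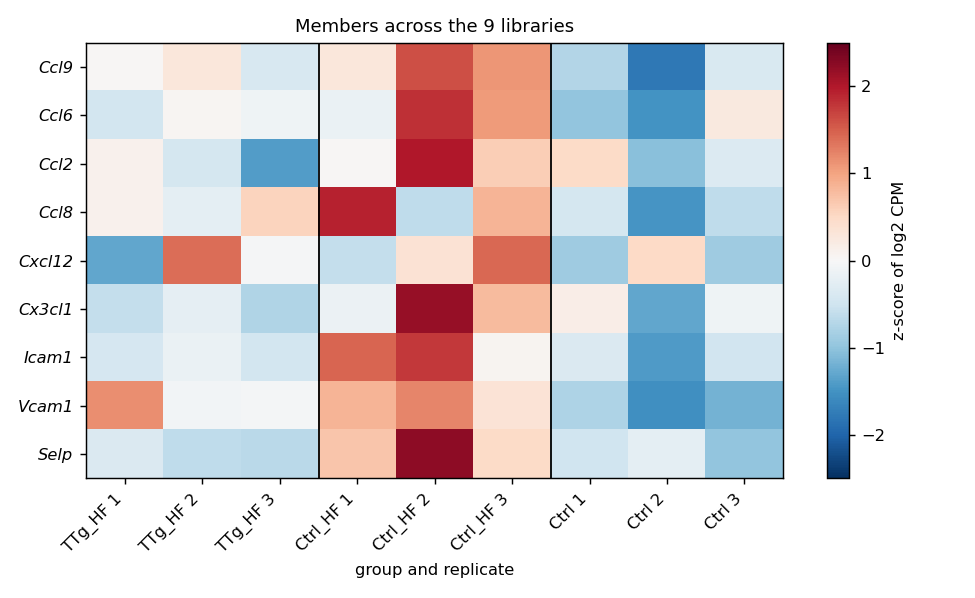
Z-score of log2 CPM of each member (rows, colour scale) over the 9 libraries (columns; TTg_HF, Ctrl_HF and Ctrl from left to right). Ctrl_HF replicate 2 is the darkest red in 7 of 9 rows, and the exceptions are Ccl8, highest in Ctrl_HF replicate 1, and Cxcl12, highest in Ctrl_HF replicate 3.

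The counterparts of the members on leukocytes were measured in the same libraries. They were chosen after their values were seen, so they describe the members' partners and support nothing. Of 11 receptors, integrin subunits and selectin ligands that bind the members, 10 could be tested, and Ccr1 and Ccr2 rose in Ctrl_HF against Ctrl. These 2 of 10 stand beside 1.79% of all tested genes called higher. Ccr1, the receptor of Ccl9 and Ccl6, had 3.37, 2.42 and 2.23 CPM in TTg_HF, 2.88, 5.12 and 4.402 CPM in Ctrl_HF, and 1.61, 1.85 and 0.938 CPM in Ctrl. Ccr2, the receptor of Ccl2 and a marker of monocytes drawn from the blood, had 6.45, 4.74 and 3.75 CPM in TTg_HF, 8.22, 7.31 and 4.52 CPM in Ctrl_HF, and 2.84, 1.501 and 2.58 CPM in Ctrl. For both receptors every library of the diet and L-NAME groups lay above every Ctrl library. In Ctrl_HF against Ctrl the log2 fold change was 1.49 for Ccr1 (SE 0.34, edgeR adjusted p = 0.0387) and 1.52 for Ccr2 (SE 0.33, adjusted p = 0.0303). In TTg_HF against Ctrl it was 0.85 for Ccr1 (edgeR adjusted p = 0.474) and 1.10 for Ccr2 (adjusted p = 0.251). Cx3cr1, the receptor of Cx3cl1, had 1.31 in Ctrl_HF against Ctrl (edgeR adjusted p = 0.0814) and 1.27 in TTg_HF against Ctrl (adjusted p = 0.232). Ccr8 was too low to be tested. Itgam, the alpha chain of Mac-1, was not found among the deposited row names and is not among the 11.

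The receptors of Cxcl12 did not pass in any comparison. Cxcr4 averaged 8.16 ± 3.20 CPM in TTg_HF, 6.49 ± 0.469 in Ctrl_HF and 7.73 ± 3.60 in Ctrl. Ackr3, which binds and clears Cxcl12, averaged 123 ± 21.1 CPM in TTg_HF, 93.1 ± 18.97 in Ctrl_HF and 105 ± 11.9 in Ctrl (SD, n = 3 each), with a log2 fold change of 0.41 in TTg_HF against Ctrl_HF (edgeR adjusted p = 0.300). Itgb2, the beta chain of LFA-1 and Mac-1, had 7.48, 9.48 and 10.9 CPM in TTg_HF, 14.9, 13.3 and 12.3 CPM in Ctrl_HF, and 7.66, 8.66 and 10.1 CPM in Ctrl. Its Ctrl_HF libraries lay above all others, with log2 fold changes of -0.53 in TTg_HF against Ctrl_HF (edgeR adjusted p = 0.209) and 0.61 in Ctrl_HF against Ctrl (adjusted p = 0.0815). The other integrin chains and the ligand of Selp did not follow it throughout. Itgal, the alpha chain of LFA-1, had 2.35, 2.42 and 3.17 CPM in TTg_HF, 6.30, 2.92 and 1.74 CPM in Ctrl_HF, and 2.84, 3.003 and 3.52 CPM in Ctrl, with Ctrl_HF spanning all other libraries (0.21 in Ctrl_HF against Ctrl, edgeR adjusted p = 0.810). Itga4, the alpha chain of VLA-4, overlapped between all groups (0.38, edgeR adjusted p = 0.670), as did Selplg, the leukocyte ligand of Selp (0.82, adjusted p = 0.285).

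The rest of the pathway was read from 6 lists, beside the same background of 1.79% of all tested genes called higher and 1.82% called lower. Of 19 chemokine receptors 8 could be tested, and 4 rose in Ctrl_HF against Ctrl, among them Ccr1, Ccr2 and Ackr2, with a median of 1.36 over the 8. Ackr2, a decoy receptor that takes up CC chemokines, had 4.398, 4.53 and 3.99 CPM in TTg_HF, 4.52, 6.58 and 7.99 CPM in Ctrl_HF, and 2.595, 2.42 and 2.11 CPM in Ctrl (1.42, edgeR adjusted p = 0.0151).

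Of 28 other chemokine ligands 12 could be tested and 1 rose in Ctrl_HF against Ctrl, Cxcl14, a chemokine of epithelia and fibroblasts, with 31.4, 40.4 and 45.9 CPM in TTg_HF, 53.0, 63.6 and 40.5 CPM in Ctrl_HF, and 31.0, 30.8 and 33.0 CPM in Ctrl (log2 fold change 0.73, edgeR adjusted p = 0.0442). The median of the 12 was 0.32 (range -0.78 to 2.38). Of 12 tested endothelial adhesion molecules outside the members none rose and 1 fell: Jam2, a junctional molecule, had 169, 164 and 157 CPM in TTg_HF, 135, 133 and 159 CPM in Ctrl_HF, and 193, 198 and 182 CPM in Ctrl (-0.43, edgeR adjusted p = 0.0269). Sele, or E-selectin, named after its values were seen, had 2.199, 2.21 and 0.821 CPM in TTg_HF, 3.97, 27.3 and 6.26 CPM in Ctrl_HF, and 0.494, 1.16 and 2.23 CPM in Ctrl. As with Selp, Ctrl_HF replicate 2 stood far above the rest, and the log2 fold change did not pass in Ctrl_HF against Ctrl (3.24, edgeR adjusted p = 0.0890) or in TTg_HF against Ctrl_HF (-2.83, adjusted p = 0.203). Sele passed in both comparisons in DESeq2 (adjusted p = 2.19e-04 and 0.00400), and in Ctrl_HF against Ctrl also without Ctrl_HF replicate 1 (0.0313), with adjusted p up to 0.270 and 0.469 in the other settings. Without Ctrl_HF replicate 2 the log2 fold changes of Sele were 1.98 and -1.56.

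Among 24 genes of the NF-kappaB pathway and its feedback 3 rose in Ctrl_HF against Ctrl and none fell, with a median of 0.24. Bcl3, a nuclear partner of NF-kappaB subunits, had 2.79, 2.53 and 1.76 CPM in TTg_HF, 5.61, 18.4 and 7.30 CPM in Ctrl_HF, and 2.35, 2.89 and 2.46 CPM in Ctrl, so that Ctrl_HF lay above both other groups (log2 fold change 2.01, edgeR adjusted p = 0.0324). Without Ctrl_HF replicate 2 its log2 fold change was 1.33 (adjusted p = 0.0339). Tnfrsf1a, a receptor of tumour necrosis factor, had a log2 fold change of 0.78 (edgeR adjusted p = 0.0380), and Il1r1, the interleukin-1 receptor, 0.81 (adjusted p = 0.0459). Of 10 tested leukocyte integrins and selectin ligands edgeR called 0 in Ctrl_HF against Ctrl (median 0.68), with 3 at an unadjusted p under 0.05, against 20.6% of all genes. DESeq2 called 2 of the 10 higher there, where it called 457 higher and 376 lower of the 20045 genes in its fit. That fit was made without the low-count filter, which the 10 had passed. Itgb1, the beta chain of VLA-4, had the lowest p (0.36, edgeR adjusted p = 0.0743). It passed in 3 of 16 other settings, with DESeq2 (0.0399), with no filter on low counts (0.0417) and without Ctrl_HF replicate 1 (0.00386), with adjusted p up to 0.240 in the rest. Of 9 proteases and inhibitors that act on chemokines and adhesion molecules edgeR called 0 in Ctrl_HF against Ctrl (median 0.25). At an unadjusted p under 0.05 there were 5, against the same 20.6% of all genes, and DESeq2 called 1 higher. Adam8, a membrane protease of leukocytes, had the lowest p of that list in TTg_HF against Ctrl_HF (-1.90, edgeR adjusted p = 0.120), and passed there with DESeq2 (0.0378) and without Ctrl_HF replicate 1 (0.0234), of a range up to 0.385. It had 6, 7 and 9 reads in TTg_HF, and reached the low-count filter's level (1.19 CPM) only in the Ctrl_HF libraries and Ctrl replicate 1. A high Ctrl_HF level was thus a condition of its being tested.

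Of the 75 tested genes of the 6 lists, edgeR called 0 in TTg_HF against Ctrl_HF, beside 0.0868% of all genes, with list medians of -0.36 to -0.02. At an unadjusted p under 0.05 there were 25 of the 75, against 14.3% of all genes. DESeq2 called 9 of the 75 lower there and none higher, among them 4 of the NF-kappaB list, Adam8 and Sele. In all it called 238 lower and 103 higher of the 20045 genes in its fit. That fit also holds genes below the low-count filter, which the 75 had passed, so the shares are not alike. Adam8 entered this count only because its Ctrl_HF values are high. In TTg_HF against Ctrl edgeR also called 0, with 12 at an unadjusted p under 0.05, against 9.41% of all genes. DESeq2 called 1 of the 75 higher there, where it called 104 genes higher and 80 lower.

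The 9 genes of these lists that edgeR called in Ctrl_HF against Ctrl depended on the libraries in the fit. In a fit of the 2 groups alone none of them passed (adjusted p 0.0531 to 0.105), and with a replicate block 4 did not (0.0566 to 0.0823). Without Ctrl replicate 2 none of them passed (adjusted p 0.0726 to 0.177). Without Ctrl replicate 1 or 3, or TTg_HF replicate 2, 1 of the 9 passed, with the others at 0.0527 to 0.0995, 0.0644 to 0.147 and 0.0549 to 0.0791. Without Ctrl_HF replicate 2 there were 2 (the others at 0.0735 to 0.107), without Ctrl_HF replicate 3 there were 3 (0.0523 to 0.107), without TTg_HF replicate 3 there were 4 (0.0509 to 0.0724), and without TTg_HF replicate 1 there were 5 (0.05, just above the threshold before rounding, to 0.0554). Without Ctrl_HF replicate 1 all but Cxcl14 passed (0.0510).

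**Figure D4:**
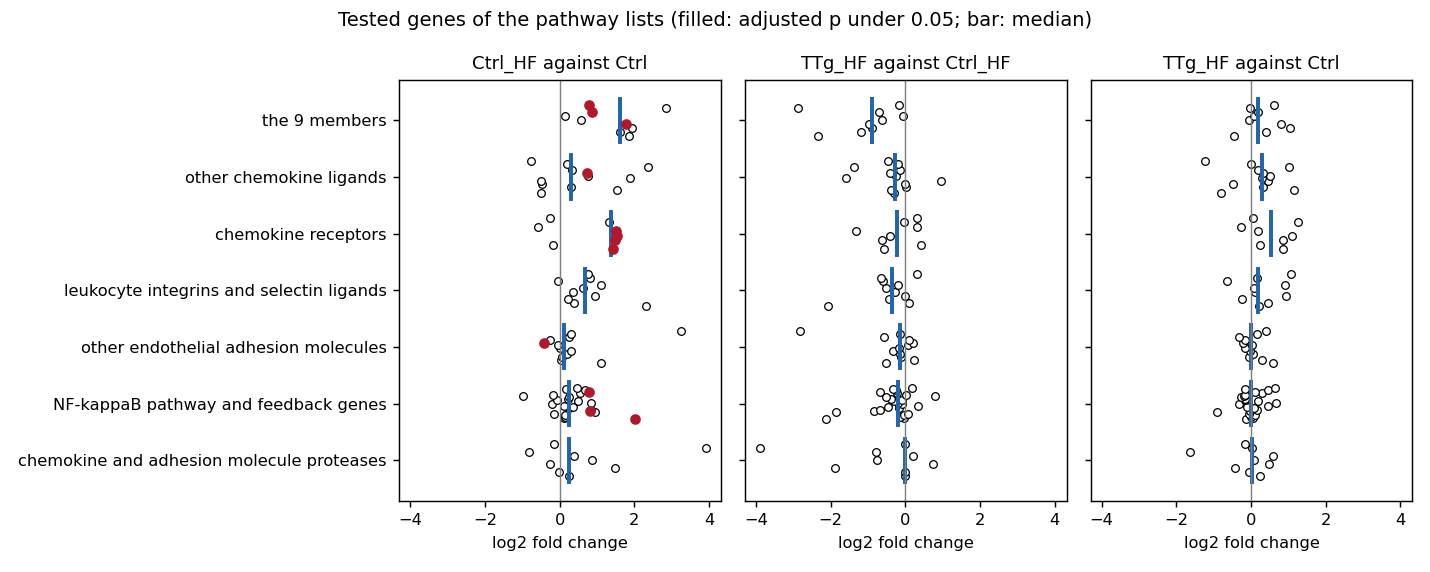
Log2 fold change (x axis) of each tested gene of the members and the 6 pathway lists (rows) in the 3 comparisons; filled points passed the adjusted threshold of 0.05 and vertical bars give medians. Filled points are found in Ctrl_HF against Ctrl only, among them 4 chemokine receptors, and the median of the members lies at 1.60 there and at -0.89 in TTg_HF against Ctrl_HF.

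Markers of the cells that make or bind these molecules were summed per library. The 13 macrophage markers reached 322 to 377 CPM in TTg_HF and 335 to 397 CPM in Ctrl_HF, against 240 to 269 CPM in Ctrl. Mrc1 and C1qb, 2 of the 13, rose in Ctrl_HF against Ctrl, where 1.79% of all genes were called higher. Mrc1 also rose in TTg_HF against Ctrl, where 0.284% of all genes did. In Ctrl_HF against Ctrl 10 of the 13 log2 fold changes were positive, while Timd4 (-1.18), Folr2 (-0.31) and Mertk (-0.13) were negative. Vcam1, Ccr1 and Ccr2 share with the macrophage sums that both diet and L-NAME groups lay above Ctrl. The means of these genes were higher in Ctrl_HF than in TTg_HF, while the macrophage medians were 361 CPM in TTg_HF and 358 CPM in Ctrl_HF. The 7 neutrophil markers, of which Ly6g was at 0 in all libraries, summed to 2.35 to 4.84 CPM in TTg_HF, 10.4 to 12.9 CPM in Ctrl_HF and 2.81 to 7.42 CPM in Ctrl, and none of the 3 that could be tested passed. For Icam1, Selp and Bcl3, too, Ctrl_HF lay above both other groups, but the order of those 2 groups was not shared by all. The neutrophil medians were 3.16 CPM in TTg_HF and 5.54 CPM in Ctrl, while the Icam1 means were 17.7 and 15.75 CPM. The 5 red cell markers summed to 190 to 834 CPM in TTg_HF, 773 to 943 CPM in Ctrl_HF and 428 to 657 CPM in Ctrl, and none passed. The part of these cells in the members' differences was not tested.

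The 6 monocyte markers (118 to 142 CPM in TTg_HF, 107 to 189 in Ctrl_HF and 104 to 139 in Ctrl) and the 5 platelet markers (7.51 to 18.97, 10.5 to 27.8 and 13.98 to 33.1 CPM in the same order) overlapped between all groups, although Ccr2, itself a monocyte marker here, rose. Lyz2 made up most of the monocyte sum, with means of 108.1, 116.6 and 107.5 CPM in that order. Plac8 and Chil3, too low to be tested, also had Ctrl_HF libraries above all Ctrl libraries, while Ly6c2, Lyz2 and Cybb overlapped there. The 10 endothelial markers, of the cells that carry Selp and much of Icam1 and Vcam1, summed to 1357 to 1592 CPM in TTg_HF, 1477 to 1633 CPM in Ctrl_HF and 1287 to 1495 CPM in Ctrl, and none passed. The 8 fibroblast markers, for the cells in which Tcf21 is active, summed to 2224 to 2440 CPM in TTg_HF, 1837 to 2944 CPM in Ctrl_HF and 1859 to 1893 CPM in Ctrl, and none passed. The 8 mural cell markers summed to 1357 to 1490, 1356 to 1464 and 1513 to 1741 CPM in that order of groups. Of them 1, Abcc9, fell in Ctrl_HF against Ctrl, where 1.82% of all genes were called lower. Abcc9 made up a large part of the mural sum, with means of 593.9, 529.5 and 773.2 CPM in the same order. The 10 lymphocyte markers, at 2.58 to 2.85, 1.39 to 7.80 and 2.66 to 3.34 CPM in all, were too low to be tested. The tissue label was checked with 8 cardiomyocyte markers, all present, which summed to 82890 to 84490 CPM in TTg_HF, 86010 to 87950 CPM in Ctrl_HF and 90630 to 101600 CPM in Ctrl.

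**Figure D5:**
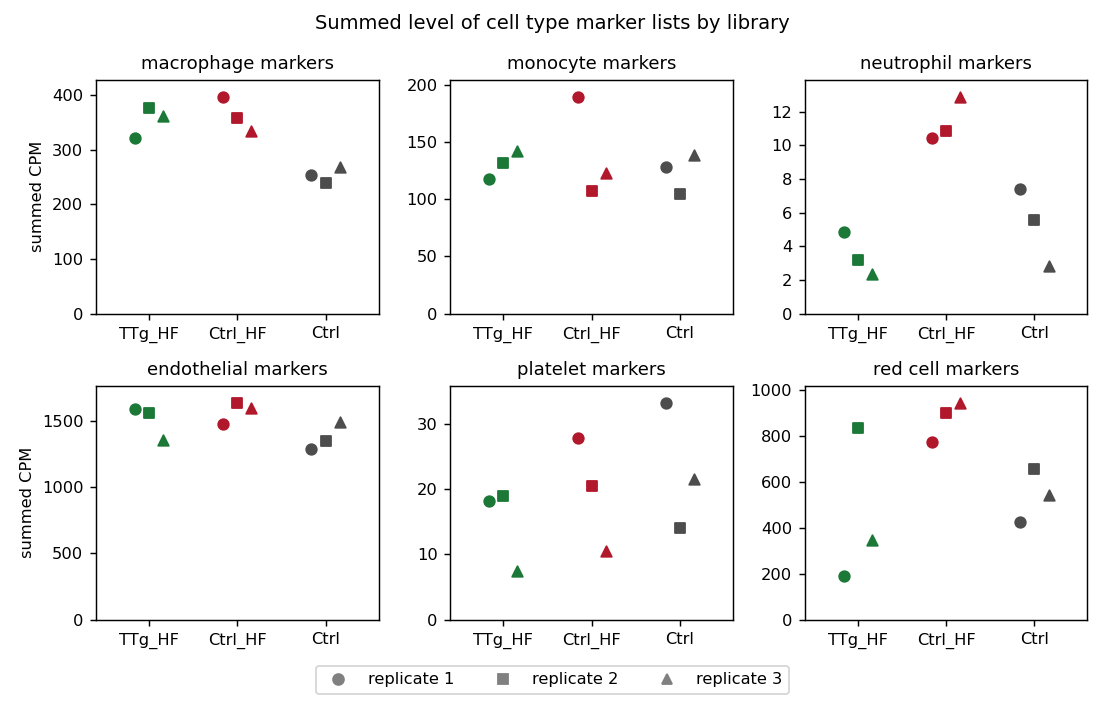
Summed CPM (y axis, from 0) of marker lists of 6 cell types in each library, with TTg_HF, Ctrl_HF and Ctrl from left to right and a marker shape per replicate. Macrophage sums are 322 to 397 CPM in the diet and L-NAME groups and 240 to 269 CPM in Ctrl, while neutrophil sums are highest in Ctrl_HF, at 10.4 to 12.9 CPM.

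For each member that passed, the genes of most similar profile were found by the root mean square difference of z-scores of log2 CPM over the 9 libraries. For Ccl9 they were Rpl5, a ribosomal protein gene (0.24), and Ttc9 (0.24). For Icam1 they were Cotl1, which binds actin filaments (0.23), and Sh3pxd2b, an adaptor of podosomes (0.25). For Vcam1 they were Arrdc4, an arrestin-domain gene (0.22), and Ccr2 (0.27). Nearness here describes 9 shared libraries and is not evidence of a link.

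The members lie at chr11:83572919-83578636 (Ccl9, minus strand), chr11:83587882-83593087 (Ccl6, minus), chr11:82035571-82037453 (Ccl2, plus), chr11:82115185-82116799 (Ccl8, plus), chr6:117168535-117181367 (Cxcl12, plus), chr8:94772009-94782427 (Cx3cl1, plus), chr9:21015985-21028817 (Icam1, plus), chr3:116109949-116129688 (Vcam1, minus) and chr1:164115264-164150026 (Selp, plus), in GENCODE vM21 on mm10, each as a protein-coding gene. Ccl2 and Ccl8 are 77.7 kb apart in the same chemokine cluster, and Ccl8 and Ccl9 1456 kb apart. The use of strand in counting is not given in the sources at hand. Of the genes on the opposite strand that overlap Ccl6, Ccl2, Vcam1 and Selp, 1 had any reads, E230016K23Rik over Ccl6, with 0 to 2 per library. Gm47079, on the opposite strand over Icam1, was not found among the deposited row names, so its reads could not be checked. Stretches of 50 bases shared with transcripts of other genes made up 2.27% of Icam1, 1.97% of Ccl9 and 0.272% of Vcam1, and none of the other 6 members.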

How the data were processed

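Bulk RNA sequencing libraries, 9 in 3 groups, were made with ribosomal RNA depletion and directional synthesis, per the labels' protocols. The deposited table holds, per library, a whole-number count (expression values, per the file headers), a signal that the authors scaled from it by 1 factor per library, and a log2 value that the authors made from that signal plus 1, both tested on the file. The submitters' processing notes name mm10; aligner and counter are not given in the sources at hand.

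Counts were analysed with edgeR 4.0.16 (R 4.3.3): filterByExpr (minimum count 10, minimum total 15), TMM, and 1 robust quasi-likelihood model over 9 libraries with a term for group, two-sided, with Benjamini-Hochberg adjustment over 12670 genes and a threshold of 0.05. Intervals are of 95% and come from the fit. CPM are counts per 1000000 after TMM. Levels per kilobase used the exonic length of GENCODE vM21, in which 94.9% of row names were found. Alternatives were RLE and the authors' factors, DESeq2 1.42.0, other filters on low counts, only the 2 groups compared, a replicate block, and leaving out each library. Permutation of 3 libraries against 3 cannot go below 0.1 and was not used.

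The members and lists were chosen with earlier results of these data known, and the binding partners and Sele after their values were seen. Named genes were all members, the passing genes of each list (up to 4, otherwise the 1 of lowest p), and the 2 of nearest profile to a passing member. A gene that this rule names is not reported here. Motifs were searched with Python 3.11.15. The edgeR fit was tested on simulated data.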

Additional observations from a re-analysis of the deposited data

How the results depend on the processing

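In Ctrl_HF against Ctrl the 3 members called of 9 became 6 with DESeq2, 2 without a filter on low counts, 2 with the replicate block (Selp and Vcam1), 0 in a fit of the 2 groups compared, and 0 to 6 on leaving out 1 library; the 458 genes called of all tested became 833 with DESeq2, 126 in the fit of the 2 groups and 85 to 1122 on leaving out a library. In TTg_HF against Ctrl_HF the 0 members became 1 with DESeq2 and 0 to 2 on leaving out a library (Cx3cl1 and Selp without Ctrl_HF replicate 1), and the 11 genes became 341 with DESeq2 (103 higher and 238 lower), 109 without the filter, 0 in the fit of the 2 groups and 2 to 665 on leaving out a library. In TTg_HF against Ctrl no alternative called a member, and the 59 genes became 184 with DESeq2, 118 without the filter, 117 in the fit of the 2 groups and 24 to 114 on leaving out a library. Log2 fold changes near 0 turned sign on leaving out a library: in TTg_HF against Ctrl_HF Cxcl12 ranged from -0.177 to 0.0439 (above 0 without Ctrl_HF replicate 3, 0.0323, or TTg_HF replicate 1), and in TTg_HF against Ctrl Ccl2 from -1.03 to 0.30 and Cx3cl1 from -0.215 to 0.0628 (both above 0 without Ctrl replicate 1), Cxcl12 from -0.0348 to 0.186 (below 0 without TTg_HF replicate 2) and Selp from -0.317 to 0.283 (above 0 without Ctrl replicate 2, and without TTg_HF replicates 2 and 3 at 0.0414 and 0.0593), with Selp at 0.0065 under the replicate block. The cause was not tested, except that leaving out a library or group leaves fewer samples. The labels do not say whether the replicate numbers pair the libraries. The correlation of same-numbered deviations from group means was -0.16 to 0.20 over 9 pairs, with 2 over 0.1. Pairs of different numbers had -0.19 to 0.17. With groups of 3 these values cannot exclude a pairing. The block moved the counts of all genes to 415, 12 and 52. RLE, the authors' factors and a mean of at least 1 CPM kept the members called at 3, 0 and 0, and the factors moved the median of all genes by at most 0.03. Depth limits Ccl2, Ccl8 and Selp most: 7, 7 and 4 of the 9 libraries reached 10 reads.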

Other observations

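The genes around Ccl9 and Ccl6 were read as a neighbourhood chosen after the values were seen. Of 41 tested genes within 2 Mb on either side, 2 were called lower in TTg_HF against Ctrl_HF, a share of 4.88%, beside 0.0395% of all tested genes. AA465934, 278 kb from Ccl9, averaged 1.78 ± 0.633 CPM in TTg_HF, 19.1 ± 7.43 in Ctrl_HF and 26 ± 5.18 in Ctrl (SD, n = 3 each), a log2 fold change of -3.45 in TTg_HF against Ctrl_HF (SE 0.39, edgeR adjusted p = 0.0227) and -3.89 in TTg_HF against Ctrl (adjusted p = 0.00310). Myo19, a mitochondrial myosin gene at 1302 kb, averaged 6.83 ± 0.647 CPM in TTg_HF, 17.8 ± 3.69 in Ctrl_HF and 15.9 ± 3.49 in Ctrl, a log2 fold change of -1.38 in TTg_HF against Ctrl_HF (edgeR adjusted p = 0.0369) and -1.21 in TTg_HF against Ctrl (adjusted p = 0.0270). Both genes were lower in all 3 TTg_HF libraries than in any other library, whereas Ccl9 and Ccl6 in TTg_HF overlapped with Ctrl and Ctrl_HF. In TTg_HF against Ctrl the same 2 of 41 were called lower (4.88%), beside 0.182% of all tested genes. In Ctrl_HF against Ctrl 1 of the 41 was called (2.44%), beside 3.61% of all tested genes in either direction. That 1 gene was Ccl9, around which the window was set. The TTg_HF against Ctrl_HF call of AA465934 held in 11 of 16 other settings (adjusted p 2.93e-16 to 0.132). It missed the threshold when Ctrl replicate 2 (0.0545), Ctrl_HF replicate 3 (0.0720), TTg_HF replicate 2 (0.132) or TTg_HF replicate 3 (0.0956) was left out. That call also missed it in a fit of the 2 groups alone (edgeR adjusted p = 0.0663). That of Myo19 held in 9 of 16 (1.53e-05 to 0.201) and was lost without Ctrl replicate 3 (0.0704), Ctrl_HF replicate 3 (0.127) or TTg_HF replicates 1, 2 or 3 (0.0620, 0.172 and 0.201). The Myo19 call was also lost in a fit of the 2 groups alone (edgeR adjusted p = 0.071) and with a replicate block (0.0564). Against Ctrl, AA465934 passed in all 16 settings and Myo19 in 11, with the loss without Ctrl replicates 1 or 3 (0.0794 and 0.115) or TTg_HF replicates 1, 2 or 3 (0.0890, 0.137 and 0.148).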
